A study of Mus musculus with 8 samples.

Results

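The mitochondrial ribosomal protein genes were studied by where and how sharply their transcription started in mouse embryonic stem cells (mESCs). They were the genes annotated as protein-coding in GENCODE release M21 (mouse genome mm10) whose symbols begin with Mrpl or Mrps and a digit, 78 of 21951 protein-coding genes. Of these, 49 were Mrpl genes, named for the large subunit, and 29 were Mrps genes, named for the small subunit. The symbols follow history: the proteins of Mrps30 and Mrps18a sit in the large subunit, and that of Mrps36 is now placed in the 2-oxoglutarate dehydrogenase complex.

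Mitochondria make the few proteins encoded by their own DNA on a ribosome that resembles that of bacteria. Its RNAs come from mitochondrial DNA, while its proteins are encoded in the nucleus, made in the cytosol and imported. Some of these proteins have bacterial counterparts, and others were added during the evolution of mitochondria and form a shell around the RNA core or anchor the ribosome to the inner membrane.

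Capped 5′ ends of nuclear RNA were mapped by CAGE-seq, which captures the cap of RNA polymerase II transcripts and sequences from it. Wild-type E14 (3 libraries) was compared with 2 clones in which both Pwwp2a and Pwwp2b were knocked out, DKO clone A1 (2 libraries) and DKO clone C7 (3 libraries). PWWP2A and PWWP2B bind nucleosomes trimethylated at lysine 36 of histone H3 and carry histone deacetylases. All lines were kept undifferentiated with LIF and serum on gelatine, each DKO line was 1 clone, and the comparison asked whether transcription began elsewhere without PWWP2A/B.

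The deposited values were positions of tag clusters, which are groups of neighbouring start sites on 1 strand. Each cluster had outer limits, a dominant TSS (the base with most tags) and an interquantile region, which runs from quantile 0.1 to quantile 0.9 of its signal. The libraries of a line had been merged into 1 track, so no value here has a replicate error and no test between lines could be made. The score of every cluster was 0, so neither expression nor the depth behind a cluster was known from these positions. The tracks held 32857 clusters in E14, 33005 in A1 and 32870 in C7. Promoter clusters were present in each line at 8 of 8 pluripotency markers, 4 of 4 fibroblast markers (Col1a1, Col1a2, Thy1 and Pdgfra), 1 of 4 primitive endoderm markers (Sox17), 2 of 3 ectoderm markers (Nes and Sox1) and 0 of 3 mesoderm markers. A promoter cluster was present at Pwwp2a in all 3 lines and at Pwwp2b in none, so presence of a cluster did not tell the knockouts from the wild type.

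All 78 genes had a cluster at an annotated promoter in every line. A promoter cluster was one whose dominant TSS lay within 500 bp of an annotated transcript start of the gene, and the main cluster was the one nearest such a start in E14, followed by overlap into the clones. The main dominant TSS in E14 lay within 50 bp of an annotated start at 74 genes (94.9%), against 91.3% of the 11003 protein-coding genes with a main cluster in all lines.

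Start site sequences are printed here for the genes on which the comparisons turn, as 30 bases of the gene's strand in 5′ to 3′ direction. Capitals mark the base before a dominant TSS and the dominant TSS itself in any of the 3 lines, and where more than 1 pair is in capitals the lines differed. Coordinates are mm10 and 1-based, and the bases were read from RefSeq promoter sequences (GRCm38.p6) and GENCODE transcripts. The first 7 lines show the 6 genes whose dominant TSS moved to the same base in both clones, with Mrpl48 printed once for the clones and once for E14. The next 4 show the sharpest and the broadest promoters, and the last 6 show a rare cytosine start, start sites beside the ETS and YY1 letters described further on, and a head-to-head pair.
Mrpl2 (chr17:46646224-46646253, plus strand): ggaccggaacgtCAtccCAgagcgccaggc
Mrpl3 (chr9:105053263-105053292, plus strand): gctgTGcttttcctccgcggagggCAttgg
Mrpl14 (chr17:45686354-45686383, plus strand): cgcaggcgCAgcgtgcggggCGgggccttg
Mrpl23 (chr7:142533143-142533172, plus strand): gtgtcgctccttccTGAccaggaggtgcgg
Mrpl45 (chr11:97315845-97315874, plus strand): agcatcccggcGGccttTGcgcgagcaaaa
Mrpl48, A1 and C7 (chr7:100583061-100583090, minus strand): tccggccctgtttcCAgacgcctggggtcg
Mrpl48, E14 (chr7:100583090-100583119, minus strand): atttggtggacggaCGtgatgaagaccttt
Mrps6 (chr16:92058307-92058336, plus strand): gcggggtcgcacggTGctttcgccgtccgg
Mrpl12 (chr11:120484576-120484605, plus strand): ctagtgcgtaatacCAggagccaacccggg
Mrps16 (chr14:20393506-20393535, minus strand): gctgtgcagcgggaCAgctggagagccgct
Mrpl17 (chr7:105811011-105811040, minus strand): cacacacagctcggAGtttccctttccggg
Mrpl24 (chr3:87919529-87919558, plus strand): ttcctgtttcctgtCCattttgtagcaacg
Mrpl33 (chr5:31613941-31613970, plus strand): gcatgccccggaagTAgtcgttgagctctt
Mrpl43 (chr19:45006430-45006459, minus strand): cggaaccggaagtCAcCGgttagtcccgcc
Mrpl35 (chr6:71823749-71823778, minus strand): caccgtaggcaggcTGcaagatggcggctt
Mrpl46 (chr7:78783020-78783049, minus strand): accttgtgggaagaCAgaaagatggcggcg
Mrps11 (chr7:78783340-78783369, plus strand): cggagggtcaatttCAgtcatgcaggtttt

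The mitochondrial ribosomal protein genes had promoters of intermediate width, with few sharp ones. The interquantile width of the main cluster had a median of 24.5 bp in E14, 25 bp in A1 and 25 bp in C7, with quartiles of 18 and 33 bp in E14. Over all protein-coding genes the median was 29 bp in each line with quartiles of 13 and 43 bp in E14, so the members were less spread. The genes of the cytosolic ribosome, which make the ribosome of the cytoplasm, had medians of 8, 9 and 9 bp. Nuclear-encoded genes of oxidative phosphorylation (OXPHOS), whose products work beside the proteins that the mitochondrial ribosome makes, had a median of 28 bp. No test was made between these gene groups, since genes of 1 track are not replicates.

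**Figure D1:**
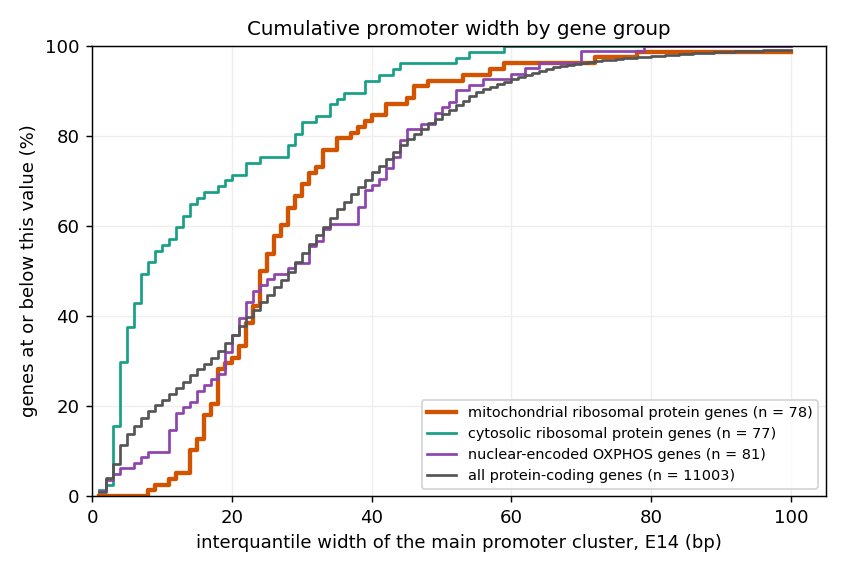
The percent of genes (vertical axis) whose main promoter cluster in E14 had an interquantile width (horizontal axis, bp) at or below each value, for 78 mitochondrial and 77 cytosolic ribosomal protein genes, 81 nuclear-encoded OXPHOS genes and 11003 protein-coding genes. The line of the mitochondrial ribosomal protein genes leaves 0 only at 8 bp, and its quartiles lie at 18 and 33 bp. The cytosolic line has reached 55.8% by 10 bp.

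Sharp promoters, at most 10 bp wide, were found at 2 of the 78 genes in E14 (2.56%), 2 in A1 (2.56%) and 1 in C7 (1.28%). Over all protein-coding genes the share was 21.3% in E14, 20.8% in A1 and 20.9% in C7. Among cytosolic ribosomal protein genes it was 55.8% in E14, and among OXPHOS genes 9.88%. The contrast with all protein-coding genes depended on the limit, since at 20 bp the shares in E14 were 30.77% and 35.86%. The subunits were alike in their medians, at 24 bp for Mrpl and 26 bp for Mrps genes in E14. Proteins with a bacterial homologue (48 genes) and those found only in the mitochondrial ribosome (29 genes) had medians of 24.5 and 24 bp.

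The narrowest main cluster was that of Mrps6, a small subunit protein with a bacterial homologue, on chromosome 16. Its interquantile width was 8 bp in E14, 4 bp in A1 and 11 bp in C7, narrower than E14 in one clone and wider in the other. Its dominant TSS, 92058322 in all 3 lines, is also the annotated start of Slc5a3, an inositol transporter gene on the same strand, so the transcripts of the 2 genes cannot be told apart there. Mrpl12, whose protein forms the flexible stalk that recruits translation factors, had a main cluster of 9 bp in every line. A second promoter cluster of Mrpl12 lay 68 bp downstream and was broad, at 40 bp in E14, 42 bp in A1 and 39 bp in C7. Mrpl33 measured 11 bp in E14 and 14 bp in both clones, Mrps10 12, 13 and 12 bp in E14, A1 and C7, and Mrpl22, which lines the exit tunnel of the nascent chain, 14 bp in each line.

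The broadest was Mrps16, another small subunit protein with a bacterial homologue, at 129 bp in E14, 125 bp in A1 and 124 bp in C7. Its dominant TSS was base 20393520 of chromosome 14 in all 3 lines. Mrpl17 followed with 78, 79 and 77 bp in E14, A1 and C7, and Mrps15 with 72, 75 and 67 bp. Mrps36 measured 59 bp in E14, 61 bp in A1 and 72 bp in C7, the largest change of width in C7. Mrpl36 measured 57, 61 and 56 bp. The order of these 5 genes by width was the same in each line, except that Mrps36 tied with Mrpl36 in A1 and passed Mrps15 in C7.

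**Figure D2:**
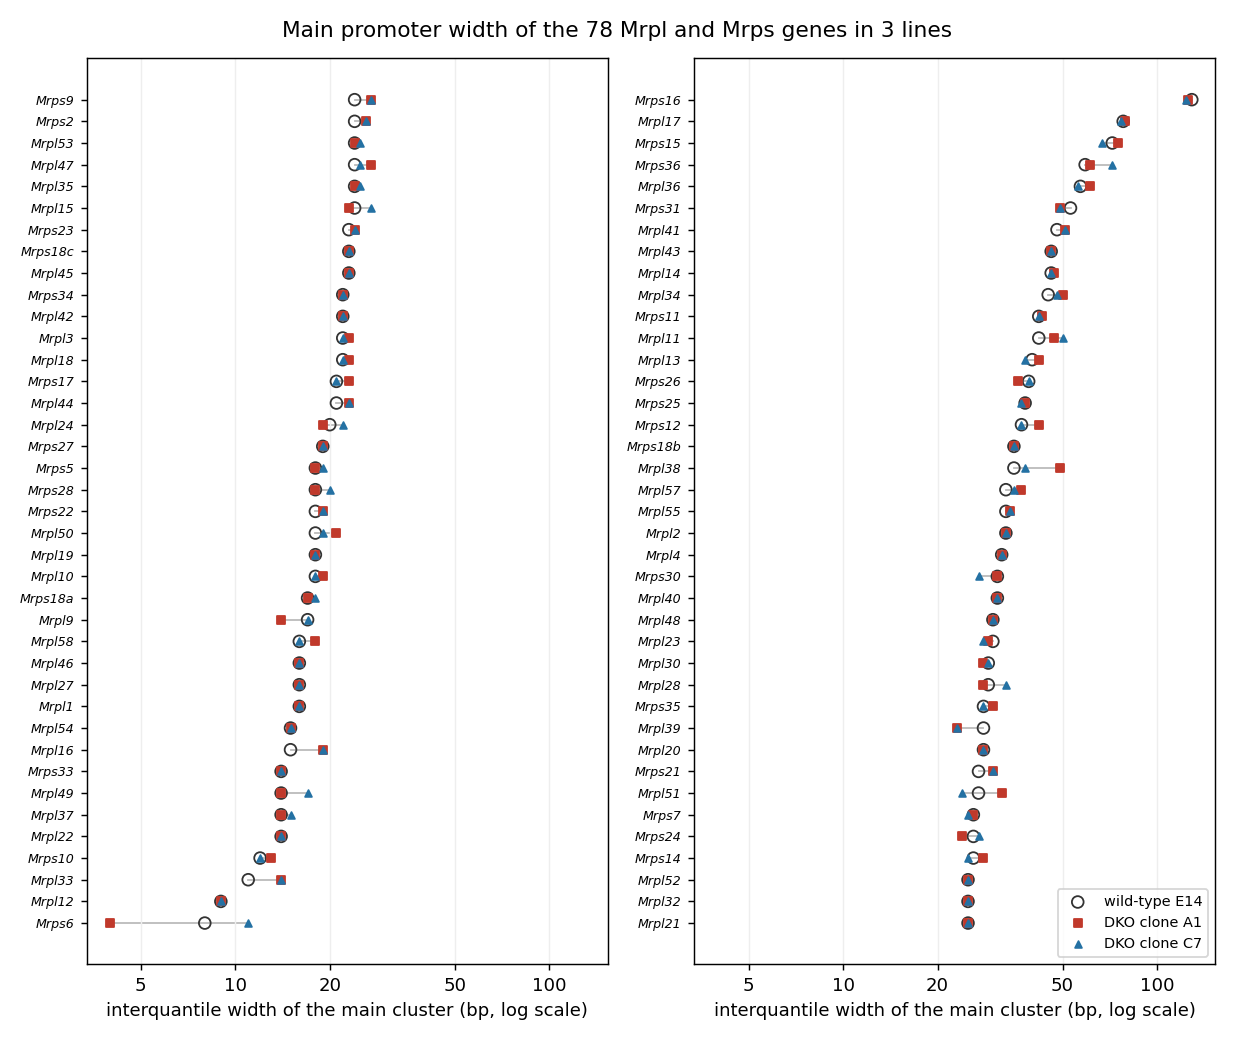
Interquantile width of the main promoter cluster (bp, log scale) of each of the 78 genes, ordered by E14, with an open circle for E14, a square for A1 and a triangle for C7, each from 1 merged track. The symbols overlap at most genes, and the widths run from 8 bp at Mrps6 to 129 bp at Mrps16 in E14.

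Widths changed by small amounts between the lines. The main cluster was wider in A1 than in E14 at 33 genes (42.3%, against 32.3% of all protein-coding genes) and narrower at 12 (15.4%, against 14.7%). In C7 it was wider at 29 (37.2%, against 30.5%) and narrower at 13 (16.7%, against 14.8%). The median difference was 0 bp in both clones, with a range from -5 to 14 bp in A1 and from -5 to 13 bp in C7. Counting only differences of more than 2 bp, 15 genes were wider in A1 (19.2%, against 17.5%) and 13 in C7 (16.7%, against 16.9%), which is close to the background. The gene with the largest gain in A1 was Mrpl38, at 35 bp in E14, 49 bp in A1 and 38 bp in C7, and it was chosen after its values were seen. Both clones were wider than E14 at 17 genes (21.8%, against 20.4%) and narrower at 4 (5.13%, against 5.84%), and all 3 widths were equal at 23 (29.5%, against 39.9%).

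The dominant TSS was the same base in all 3 lines at 62 genes (79.5%, against 74.1% of all protein-coding genes). It differed from E14 at 12 genes in A1 (15.4%, against 18.4%) and at 12 in C7 (15.4%, against 16.3%). Both clones differed from E14, at any base, at 8 genes (10.3%, against 8.81%). The clones differed from each other at 10 genes (12.8%, against 19.6%). The size of the shift had a median of 11 bp in A1 and 7 bp in C7, with the largest at 44 and 41 bp. Among the groups compared, the dominant TSS was the same in all lines at 93.5% of cytosolic ribosomal protein genes and 88.9% of OXPHOS genes. How many of these shifts exceed the spread between libraries could not be measured from merged tracks.

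At 6 genes both clones had the same new dominant TSS (7.69%, against 6.28% of all protein-coding genes), and all 6 were Mrpl genes, as were 49 of the 78. In the clones Mrpl48, a protein found only in mitochondrial ribosomes, started 29 bp downstream of E14, at base 100583075 in place of 100583104 on the minus strand of chromosome 7. At Mrpl3, a conserved protein with a bacterial counterpart, the shift was 20 bp downstream, from 105053268 to 105053288 on chromosome 9. At Mrpl14 it was 12 bp downstream, from 45686363 to 45686375 on chromosome 17. Mrpl45, whose protein tethers the exit tunnel to the inner membrane, started 6 bp upstream in the clones, Mrpl2 5 bp upstream and Mrpl23 1 bp upstream. All of these shifts stayed within the cluster, as its outer limits, the same in the 3 lines, required. The interquantile width of Mrpl2, Mrpl45 and Mrpl48 was identical in the 3 lines, at 33, 23 and 30 bp. Those letters are in the sequences above, where the Mrpl48 clones started at an adenine after a cytosine and E14 at a guanine after a cytosine.

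The other 10 genes moved in 1 clone or to different bases. In A1 alone Mrps15 moved 44 bp downstream, Mrpl28 26 bp upstream, Mrpl27 8 bp downstream and Mrps30 4 bp downstream. In C7 alone Mrpl11, a protein at the base of the stalk, moved 41 bp upstream, Mrpl44 20 bp upstream, Mrps24 6 bp downstream and Mrpl43 3 bp downstream. Mrps7 lay 19 bp downstream of E14 in A1 and 8 bp downstream in C7, and Mrpl22 lay 10 and 1 bp downstream. In E14 the dominant TSS of the 16 genes that moved was a purine after a pyrimidine at 14. After the shift this held at 9 of 12 genes in A1 and 8 of 12 in C7. The 16 genes include some that moved in 1 clone only, so these counts cover different sets of genes. No share over other moved genes was taken.

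**Figure D3:**
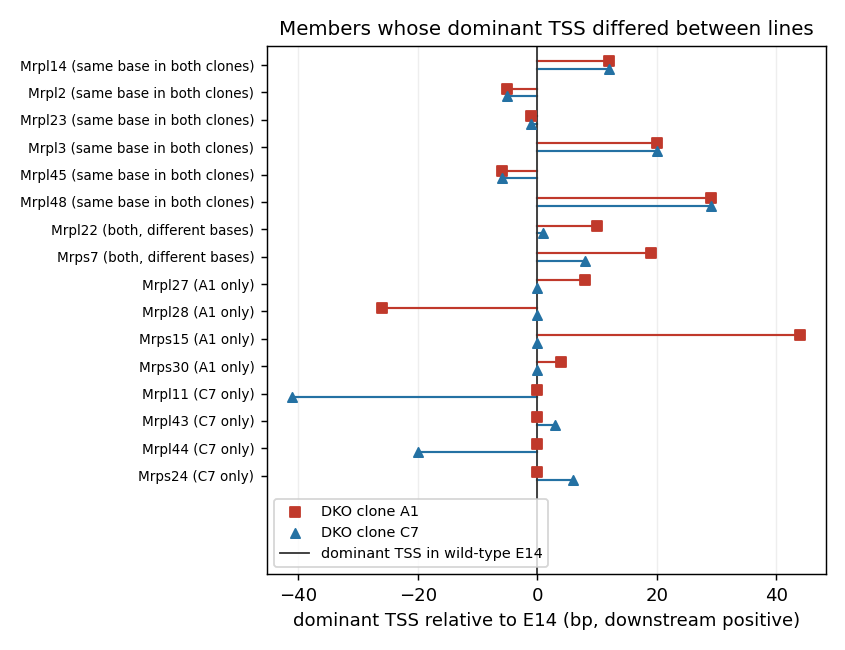
Position of the dominant TSS in A1 (squares) and C7 (triangles) relative to E14 (vertical line at 0), in bp along the gene's strand with downstream positive, for the 16 genes at which a line differed. The first 6 genes from the top show paired symbols at the same position, and Mrps15 in A1 and Mrpl11 in C7 lie farthest from E14, at 44 bp downstream and 41 bp upstream.

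RNA polymerase II most often starts at a purine that follows a pyrimidine. The 2 bases at the dominant TSS in E14 were known for all 78 genes, and 70 of them (89.7%) had this arrangement, against 82.7% of all protein-coding genes (bases known for 93.4%) and 79.2% of OXPHOS genes. The start was a guanine at 42 genes (53.8%) and an adenine at 35 (44.9%), and a thymine at 0 of 78. Guanine after thymine was found at 23 genes (29.5%), against 17.3% of all protein-coding genes. It was found at 37.5% of genes with a bacterial homologue and at 17.2% of those found only in the mitochondrial ribosome. Adenine after cytosine was less frequent than over all protein-coding genes (30.8%, against 35.6%). The other 2 pairs were close to it, CG at 20.5% against 20.2% and TA at 8.97% against 9.65%. The only cytosine start was that of Mrpl24 (1.28%, against 8.04%). Cytosolic ribosomal protein genes differed most from this, since 84.1% of those with known bases (89.6%) started at a cytosine and 11.6% at a purine after a pyrimidine, which is the arrangement known from 5′ terminal oligopyrimidine messages. The other 7 genes without this arrangement had a purine at both bases, and Mrpl17 with AG in the printed sequence is an example.

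Leaders, the spliced bases from the dominant TSS to the annotated start codon, were short. The median in E14 was 29 bases (quartiles 18 and 78, range 4 to 253, 77 genes), against 129 bases over 10566 protein-coding genes, 49 over cytosolic ribosomal protein genes and 55 over OXPHOS genes. A leader of at most 10 bases was found at 9 genes (11.7%), against 2.46% of all protein-coding genes, 11.4% of OXPHOS genes and 0% of cytosolic ribosomal protein genes. These 9 were named after their values were seen: Mrps11 with 4 bases, Mrpl35 with 5, Mrpl19 and Mrpl46 with 6, Mrpl44 and Mrpl47 with 9, and Mrps18a, Mrps18b and Mrps27 with 10. The longest was at Mrps12, a protein of the decoding centre, with 253 bases. Mrps genes had a median of 25 bases and Mrpl genes of 34.5.

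**Figure D4:**
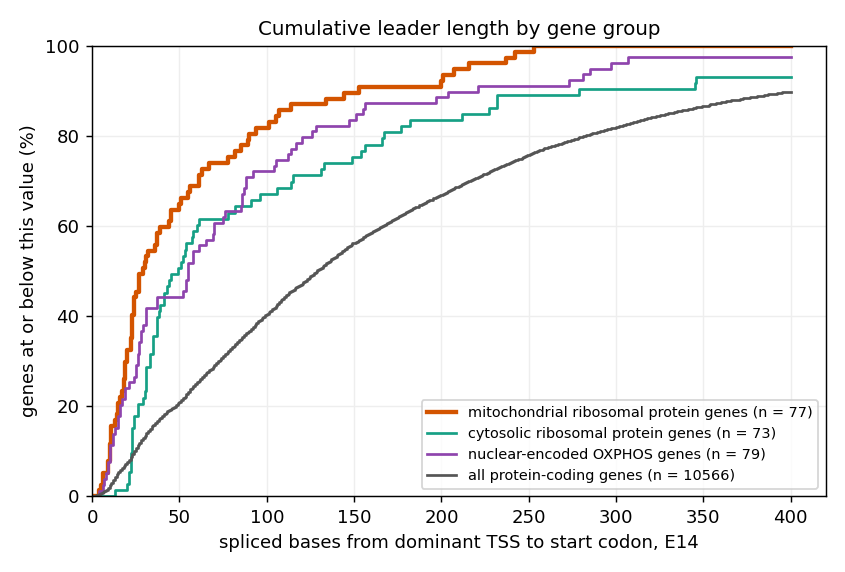
The percent of genes (vertical axis) whose leader, in spliced bases from the E14 dominant TSS to the start codon (horizontal axis), was at or below each length, in 4 gene groups. The mitochondrial ribosomal protein genes reach 64.9% at 50 bases, where all protein-coding genes stand at 21%.

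Alternative promoters were less frequent than at the genes of the cytosolic ribosome. In each line 117 clusters lay at the 78 genes, from 500 bp upstream of the gene to its end. Of these, 108 were promoter clusters (78 main and 30 others) and 9 were internal. In E14, 49 genes had 1 cluster, 20 had 2, 8 had 3 and 1 had 4. More than 1 promoter cluster was found at 23 genes (29.5%), against 37.5% of all protein-coding genes, 81.8% of cytosolic ribosomal protein genes and 40.7% of OXPHOS genes. By subunit it was 34.7% of Mrpl and 20.7% of Mrps genes. The outer limits of all 117 clusters were the same in the 3 lines, as they were for 98.5% of main clusters of all protein-coding genes. No member had a cluster missing from a line, against 3.29% of all protein-coding genes, and with limits shared in this way presence says little about how strongly each line used a site.

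The 30 other promoter clusters had a median interquantile width of 17 bp in E14, and 14 of them were at most 10 bp wide. They lay from 36 to 17020 bp from the main dominant TSS, with a median of 187 bp, 11 upstream and 19 downstream. Mrps5, a small subunit protein with a bacterial homologue, had 4 promoter clusters in each line, the most of any member. Relative to its main dominant TSS at 127587411 of chromosome 2 the others lay at -137, 2934 and 8450 bp (downstream positive), with widths of 47, 23 and 5 bp in E14. The cluster 2934 bp downstream measured 31 bp in C7 and 23 bp in A1. At Mrpl14 a pair of clusters lay 8975 and 9026 bp downstream at another annotated start. The second of that pair widened from 15 bp in E14 to 22 bp in A1 and 28 bp in C7. At Mrpl33 the farthest cluster lay 17020 bp upstream, 1 bp from an annotated start of Mrpl33 and 2 bp from one of the noncoding gene Gm43809, and was 1 bp wide in E14 and 3 bp in both clones. Mrpl24 had a broad second promoter cluster 154 bp downstream (36, 36 and 40 bp in E14, A1 and C7). Mrpl40, a protein found only in mitochondrial ribosomes, had others at -330 and 71 bp, which were 4 and 33 bp wide in E14.

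**Figure D5:**
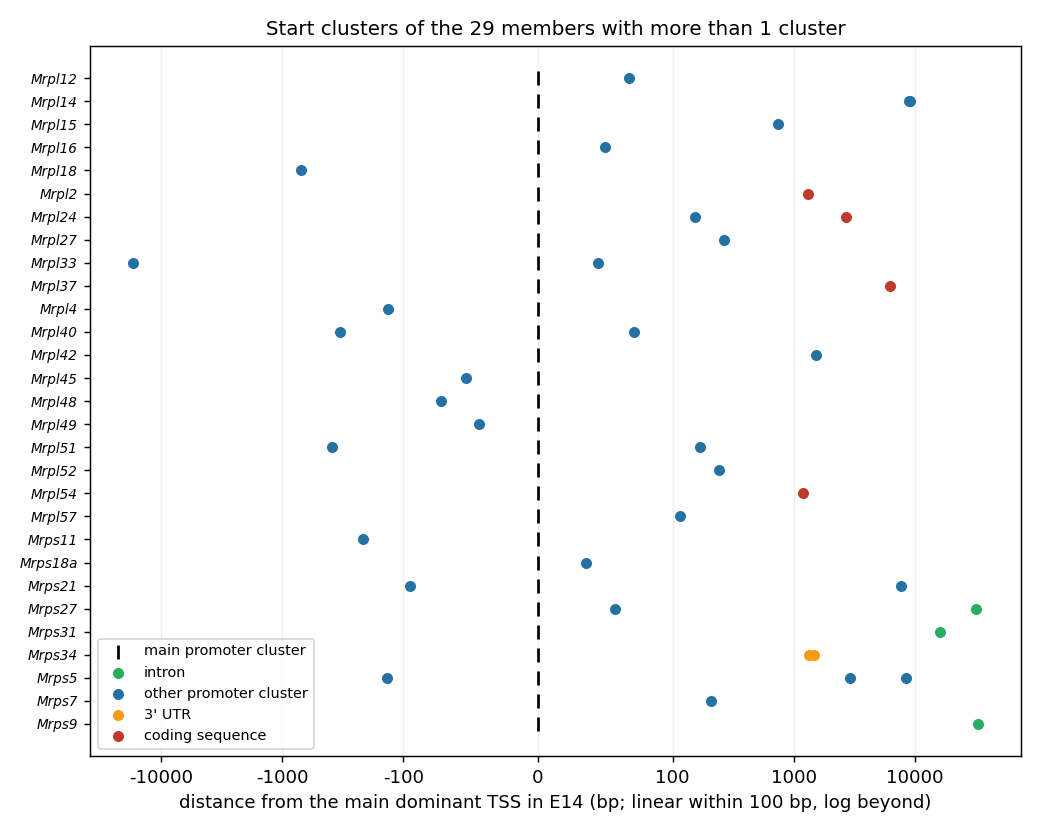
Start clusters of the 29 genes with more than 1 cluster in E14, each placed by the distance of its dominant TSS from the main dominant TSS (bp along the gene, linear within 100 bp and log beyond). Other promoter clusters lie on both sides of the main one, and the coding sequence, intron and 3′ UTR clusters all lie downstream, from 1202 bp at Mrpl54 to 33217 bp at Mrps9.

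Internal clusters, the kind of site that the study asked about, were few, and each was present in all lines. They were found at 8 of the 78 genes (10.3%), against 22.1% of all protein-coding genes, 48.1% of cytosolic ribosomal protein genes and 12.3% of OXPHOS genes. Coding sequence held 4 of the 9. They lay in exon 2 of 7 at Mrpl2 (46647544 to 46647545 of chromosome 17), exon 2 of 5 at Mrpl24 (87922217 to 87922218 of chromosome 3), exon 5 of 7 at Mrpl37 (107060627 to 107060628 of chromosome 4) and exon 2 of 3 at Mrpl54 (81265711 to 81265712 of chromosome 10). Each of these clusters was 2 bp wide in every line. The dominant TSS was the same in all lines at Mrpl2 and Mrpl24, and in A1 it was the other of the 2 bases at Mrpl37 and Mrpl54. Introns held 3, of which those at Mrps9 (5 bp) and Mrps27 (2 bp) were narrow in every line. The intronic cluster of Mrps31, 16008 bp downstream of its main dominant TSS, was 22 bp wide in E14 and C7 and 33 bp in A1, with a different dominant TSS in each line. In all, the dominant TSS differed between lines at 4 of the 9 internal clusters, 9 of the 30 other promoter clusters and 16 of the 78 main ones. Shares over all protein-coding genes were not taken for internal and other promoter clusters, so these counts are only described. The remaining 2 internal clusters lay in the 3′ UTR of Mrps34, where the neighbouring gene Nme3 starts on the same strand. Their dominant TSSs were 6 bp upstream and 92 bp downstream of an annotated Nme3 start, so they cannot be assigned to Mrps34.

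Many of the promoters faced another start. A cluster on the opposite strand lay within 500 bp upstream of the main dominant TSS at 30 genes in E14 (38.5%), against 21.8% of all protein-coding genes, 36.4% of cytosolic ribosomal protein genes and 32.1% of OXPHOS genes. The distance between the facing dominant TSSs had a median of 132 bp and ran from 51 to 362 bp. At 23 genes (29.5%, against 12.8%) the facing start belonged to another protein-coding gene. This share was 24.7% of OXPHOS genes, 16.9% of cytosolic ribosomal protein genes and 31.6% of 19 mitoribosome assembly factors, so it was not particular to the members. The closest was at Mrpl43, 51 bp from the start of Twnk, the helicase of mitochondrial DNA replication. Mrps7 lay 62 bp from Gga3, a gene of vesicle sorting, and Mrpl27 63 bp from Eme1, a gene of DNA repair. At Mrpl4 (58 bp) and Mrpl52 (65 bp) no protein-coding gene was annotated at the facing start. Mrpl46 and Mrps11, from opposite subunits, form a head-to-head pair in which the nearest facing clusters lay 108 bp from Mrpl46 and 321 bp from the main TSS of Mrps11. Mrps11 has another promoter cluster with its dominant TSS at -213 bp from the main one, and this is the cluster 108 bp from Mrpl46. The main dominant TSSs of the pair were the same in all 3 lines.

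Further facing partners are named for their known functions, after the values were seen. Mrps12 faced Sars2, the mitochondrial seryl-tRNA synthetase, at 206 bp, and Mrpl47 faced Ndufb5, a subunit of respiratory complex I, at 242 bp. Mrps27 faced Ptcd2, an RNA-binding protein of mitochondria, at 97 bp. Other partners work elsewhere in the cell. Mrpl32 faced the proteasome gene Psma2 at 220 bp, Mrpl40 the histone chaperone gene Hira at 121 bp, and Mrpl18 the chaperonin gene Tcp1 at 362 bp, which was the widest gap. Mrpl49 faced Fau, which encodes a protein of the cytosolic ribosome, at 200 bp. The main dominant TSSs of these 7 genes were the same in all 3 lines, as at 79.5% of all members and 74.1% of all protein-coding genes. Not every gene with a facing coding gene kept its dominant TSS. It differed between lines at Mrpl2, Mrpl14, Mrpl27, Mrpl43 and Mrps7, which also faced protein-coding genes.

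Promoter sequence was compared in RefSeq windows that span 250 bases before to 50 bases after each annotated start. A window was matched to 68 of the 78 genes (87.2%), and not to Mrpl4, Mrpl13, Mrpl15, Mrpl19, Mrpl20, Mrpl38, Mrpl54, Mrps28, Mrps34 or Mrps35. The E14 dominant TSS lay inside the window at 56 of the 68 genes. At the others the window describes sequence beside the dominant start. Shares are given beside all 32851 RefSeq windows, which include genes with no cluster in these cells, and beside the 8184 windows of protein-coding genes with a main cluster. The second set covers 74.4% of such genes, below the minimum of 80% set for a check, so as a check on those genes it is void and its values are only described. The ETS letters CCGGAAG, on either strand, were found in 26 windows (38.2%, against 8.86% of all windows and 21.8% of the protein-coding ones). They were also in 42.1% of the windows of cytosolic ribosomal protein genes, of which 74% had one, and in 23.1% of those of OXPHOS genes. The YY1 letters AAGATGGCG, on either strand, were in 8 member windows (11.8%, against 1.4% and 3.97%). They were in 9.23% of OXPHOS and 5.26% of cytosolic ribosomal protein windows. The NRF1 motif, a palindrome that reads the same on both strands, was in 3 member windows (4.41%, against 0.971% and 2.58%). It was in 7.69% of OXPHOS windows, above the members, and in 3.51% of cytosolic ribosomal protein windows. The GC box GGGCGG on either strand was in 33 (48.5%), above the 35.7% of all windows and below the 71.2% of the protein-coding ones. CCAAT on either strand was in 26 (38.2%, against 37.4% and 40.7%), and TATAAA on the gene strand in 3 (4.41%, against 8.32% and 3.67%). The windows had a median of 58.2% G and C, against 52.7% over all windows and 62% over the protein-coding ones. Their observed over expected CpG ratio was 0.819, against 0.384 and 0.801. Of the 68 member windows, 35 held at least 1 of the ETS, NRF1 and YY1 motifs and 8 held none of the 6 motifs. These combined counts have no share over other windows beside them. A match to letters is a description and not a bound site.

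Most ETS letters lay near the start. Positions are given for the members alone, so the counts below have no share over other genes beside them. At 22 of the 26 genes a match began between 100 bases before and 50 bases after the E14 dominant TSS, with a median first base at -26, counting the dominant TSS as 0. At Mrpl33 they ran from -8 to -2, directly before the start, and at Mrpl43 1 of 2 matches ran from -9 to -3, as the printed sequences show. The YY1 letters contain ATG, and at 4 of the 8 genes this ATG was the annotated start codon. These were Mrpl35, Mrps18a, Mrps24 and Mrps27, with leaders of 5, 10, 31 and 10 bases, so the letters overlapped the first codon there. The matched windows end 50 bases after a RefSeq start and miss some start codons. In the 50 bases from the E14 dominant TSS, known for 74 genes, the letters were on the gene strand of 8 genes. Their ATG was the start codon at 7, adding Mrpl38, Mrpl46 and Mrps10. Mrpl42 was outside this count because its 50 bases were not all known. Its matched window held the letters on the gene strand from 17 to 25, and their ATG was not the start codon. The match counted in the window of Mrps11, on the opposite strand, is the start codon site of Mrpl46, which the printed Mrpl46 sequence shows. The NRF1 motif was found at Mrpl9, Mrpl32 and Mrpl39, all Mrpl genes, as were 42 of the 68 genes with a window. TATAAA was near the usual distance only at Mrpl16, where it began at -33.

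Other genes of mitochondrial translation were set beside the members. All 5 mitoribosomal proteins with other symbols (Dap3, Ptcd3, Chchd1, Aurkaip1 and Gadd45gip1) had a promoter cluster in each line, with a median main width of 22 bp in E14 and the same dominant TSS in all lines at 5 of 5. The 10 mitochondrial translation factors, such as the elongation factor Tufm, had a median of 32.5 bp, and their dominant TSS was the same in all lines at 7. The 19 assembly factors, which process and fold the ribosomal RNAs or place proteins on them, had a median of 29 bp and the same dominant TSS in all lines at 13. Leaders had medians of 160, 94.5 and 21.5 bases in these groups, so the assembly factors were nearest to the 29 bases of the mitochondrial ribosomal protein genes.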

How the data were processed

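CAGE-seq of nuclear RNA from 8 libraries was used. Per the labels and the study's methods, the authors mapped reads to mm10 with STAR 2.4.2a (the labels also name SAMtools 1.3 and bedtools 2.17.0), merged the libraries of each line, normalized by a power law and called clusters with CAGEr. The deposited values are positions in 3 tracks, namely cluster limits, dominant TSS and the blocks of the interquantile region, with a score of 0 throughout. Nothing was renormalized, and no test was made because each line is 1 track. The number of tags behind a cluster is unknown from these files, so no interval is given.

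Positions were written 1-based. The main promoter cluster was chosen as described, on GENCODE M21 (the study annotated with another release), and overlap was at least 1 bp on 1 strand. Python 3.11.15, NumPy 2.4.6 and Matplotlib 3.10.9 were used, and the functions were tested on simulated clusters. Genes were named if among the 5 narrowest or widest promoters, the 5 with most clusters, those with internal clusters, those moved alike in both clones, the 5 largest shifts or the 5 closest facing starts. Mitoribosomal classes, related lists, motifs and members were chosen with earlier results of these data known. Alternatives were the promoter and upstream windows, width limits, the choice of main cluster, shift limits, strand and overlap rules. The fibroblast, endoderm, mesoderm and ectoderm markers were used for presence only.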

Additional observations from a re-analysis of the deposited data

How the results depend on the processing

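No paired analysis was possible because the libraries of each line were merged into 1 track before clusters were called, and for the same reason no library could be left out in turn. Of 66 alternatives, 45 kept a count within 1.5 times or a median within its order-statistic interval, and 21 did not. Among the first, ignoring strand gave 169 clusters in E14, 171 in A1 and 170 in C7 in place of 117. By whole cluster the median width was 62 bp in each line in place of 24.5 or 25 bp. By that measure the order of the gene groups was not that of the interquantile widths. In E14 the whole-cluster median was 51 bp over all protein-coding genes, 82 bp over OXPHOS genes and 105 bp over cytosolic ribosomal protein genes. With sharp set at 5 bp, 0 genes in E14, 1 in A1 and 0 in C7 were sharp, and with 20 bp 24, 23 and 23. In E14 the share at 5 bp was 0%, against 13.91% of all protein-coding genes. At 20 bp it was 30.77%, against 35.86% of all protein-coding genes and 35.8% of OXPHOS genes. The shortage of sharp promoters was therefore large at 5 and 10 bp and small at 20 bp. Shifts of the dominant TSS by more than 10 bp were left at 6 genes in A1 (7.69%, against 8.12% of all protein-coding genes), 5 in C7 (6.41%, against 7.53%) and 3 at the same base in both clones (3.85%, against 2.9%). In each line, the internal clusters rose from 9 to 18 when promoters were limited to 100 bp around a start and to 17 when starts of noncoding transcripts were dropped. The 9 added by the first lay 102 to 453 bp from an annotated start, and 2 of them were main clusters. Shares over all protein-coding genes were not taken under either setting. Whether internal clusters stayed less frequent at the members than over all protein-coding genes is therefore not known there. Wider regions by more than 2 bp were left at 15 genes in A1 and 13 in C7 in place of 33 and 29, and this alternative, like those for leaders, facing starts, initiators and YY1 letters after the start, was chosen after seeing the data. Clusters missing from a line numbered 0 under all 4 overlap rules. With outer limits shared by the lines, every rule but the overlap of interquantile regions had to give 0. The median leader was 30 bases with the widest cluster as the main one. From the merged positions used here, differences between lines could not be set against the spread between libraries, and the signal tracks of the study were not used here.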
